A study of Mus musculus with 6 samples.

Results

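The Na,K-ATPase and the potassium channels beside it in the basolateral membrane of the renal tubule were followed in RNA-seq profiles of mouse kidney. The 7 genes were chosen by name, though with earlier results of these data known. They are 2 beta subunits of the pump (Atp1b1, Atp1b3), 3 FXYD proteins (Fxyd2, Fxyd4, Fxyd5) and 2 inward rectifier potassium channel subunits (Kcnj10, Kcnj16). All 7 were found among the 51804 gene symbols of the deposited table, each under 1 Ensembl gene ID, and all 7 passed the filter on low counts that left 15017 genes for testing. The question of the study was how deleting cyclin B1 from the tubular epithelium bears on ageing and fibrosis of the kidney. The labels give 3 libraries from mice with the genotype Ccnb1f/f;Cdh16-Cre (labelled knockout) and 3 from mice with the genotype Ccnb1f/f (control); the floxed Ccnb1 alleles were shared by both groups and the Cre transgene was not. The Cdh16 promoter drives Cre in tubular epithelium, and whole kidney contains many other cells, such as those of vessels, stroma and blood. The label of the tissue is kidney, whereas the extraction protocol also speaks of cultured cells. Age, sex, strain, treatment and the floxed exons are not stated in the labels. Nor do the labels say that replicates are separate animals, and p-values then describe only how far these libraries scatter, which may be technical.

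The sodium pump exports sodium and imports potassium across the basolateral membrane and so powers nearly all reabsorption along the nephron. Its catalytic alpha subunit reaches the membrane only with a beta subunit, and a small FXYD protein binds the pair and tunes its affinity for the ions. The potassium brought in leaves again through basolateral channels, in which the products of Kcnj10 (Kir4.1) and Kcnj16 (Kir5.1) join as a heteromer in the distal nephron. In people, inherited defects of FXYD2 cause urinary magnesium loss, and defects of KCNJ10 cause EAST syndrome, with salt wasting by the kidney.

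Fxyd2 was read by transcript as well as by gene, and the sequences below show where its 2 most abundant transcripts part. In GENCODE M21 (GRCm38, chromosome 9, plus strand) the transcripts Fxyd2-202 (ENSMUST00000213158) and Fxyd2-201 (ENSMUST00000041005) each have 6 exons, share the last 5 and differ in the first, which starts 2787 bases further downstream in Fxyd2-202. The annotation marks a coding sequence of 195 bases in Fxyd2-201. It types Fxyd2-202 as a processed transcript without one, although the longest reading frame found in its sequence, 213 bases, opens with an ATG in its own first exon and runs on through the same 176 bases after the first exon as the coding sequence of Fxyd2-201. Capitals mark the ATG that opens each frame. The frame within the first exon of Fxyd2-202 (chr9:45406130-45406166), the coding part of the first exon of Fxyd2-201 (chr9:45403282-45403300) and the start of the second exon that follows in both (chr9:45408106-45408135) read:
Fxyd2-202 first exon: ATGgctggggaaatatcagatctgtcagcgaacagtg
Fxyd2-201 first exon: ATGgacaggtggtacctgg
Shared second exon: gtggcagtgccaaggggacagagaatccct

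Each library held between 16061435 and 21261226 estimated counts. Ccnb1, the targeted gene, had 18, 15 and 11 counts in the libraries labelled knockout, against 11, 17 and 7 in the controls. The log2 fold change was 0.34 (SE 0.46; edgeR adjusted p = 0.9995). Whether these counts fall inside the deleted part of the gene is unknown, and they do not bear out the knockout label, so every direction below is that of libraries by label. On the first principal component of log2 CPM, which held 28.6% of the variance, control 2 stood apart at -49.6, with the other 5 libraries between -7.2 and 22.1. Markers of proximal tubule, thick ascending limb, distal convoluted tubule, principal cells and intercalated cells were present in every library. The summed level of 8 proximal tubule markers was 22500 to 23100 CPM in the libraries labelled knockout and 20800 to 24700 CPM in the controls. Of 4 adrenal cortex markers, Cyp11b1 had no count in any library and Cyp11a1 and Cyp21a1 had at most 2 counts, whereas Star had 63, 69 and 63 counts in the libraries labelled knockout, against 45, 94 and 60 in the controls. In bulk tissue, as here and in all values below, fewer cells of a type and less RNA per cell cannot be told apart.

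None of the 7 genes passed the test of libraries labelled knockout against controls. The widest of their 95% intervals ran from 0.619-fold to 1.35-fold, and the narrowest from 0.915-fold to 1.24-fold. Under edgeR's quasi-likelihood test, 0 of 7 passed an adjusted p of 0.05, where 0.0133% of all genes tested passed (2 of 15017, with 0.00666% higher and 0.00666% lower). At an unadjusted p under 0.05 the count was again 0 of 7, beside 3.23% of all genes (485), with a lowest p of 0.33 by edgeR. DESeq2 also called 0 of 7, beside 0.0812% of all genes (0.0704% higher and 0.0108% lower), and found 0 of 7 at an unadjusted p under 0.05, beside 2.06%. With limma on log2(FPKM + 1), 0 of 7 were called at an adjusted p of 0.05, where only 1 of all genes was called. At an unadjusted p under 0.05 limma also found 0 of 7, but the share over all genes was not taken, so this count has no background. Of the 7 fold changes 5 lay above 0, and their median log2 fold change was 0.05, against -0.01 over all genes tested. In level the genes differed from each other far more than the groups did.

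**Figure D1:**
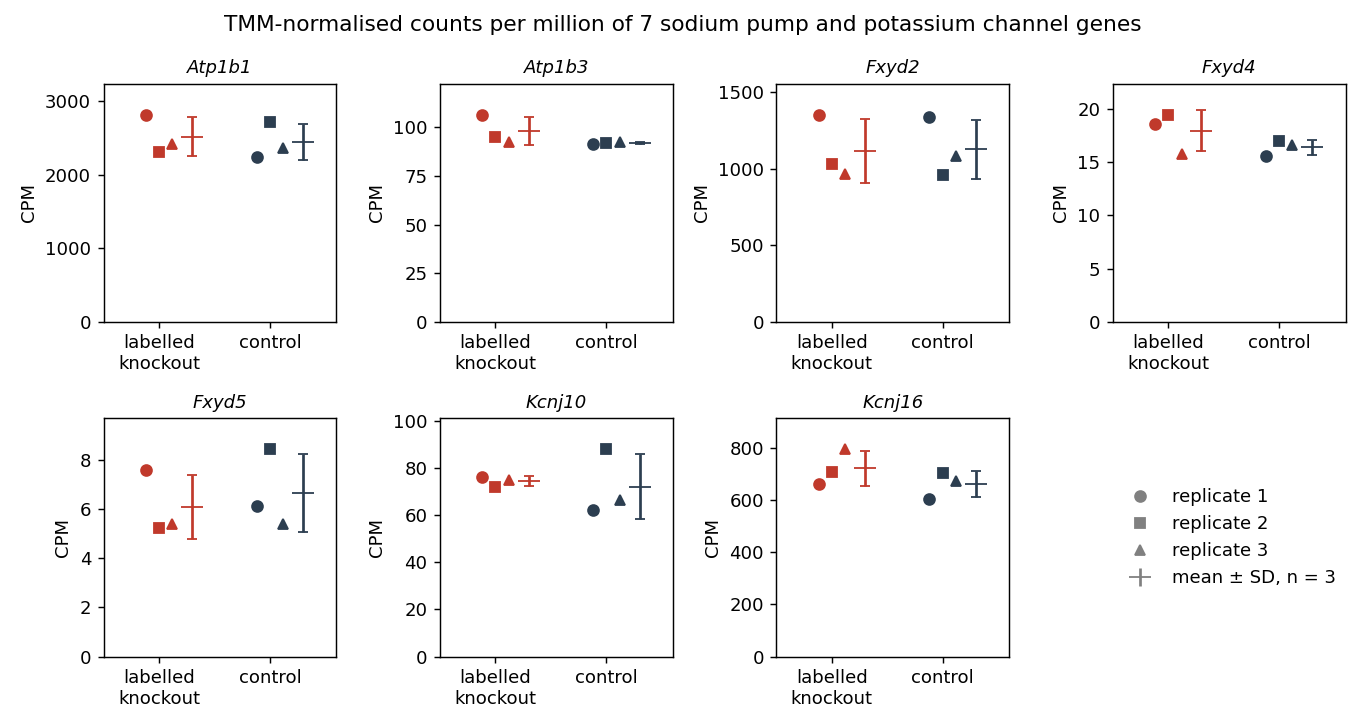
TMM-normalised CPM of each of the 7 genes in the 3 libraries labelled knockout (red, left) and the 3 controls (dark blue, right). Counts were scaled to the library total as adjusted by its TMM factor (y axis of each panel, from 0). Point shapes mark the replicate number, and the bars beside them mean ± SD (n = 3 each). The groups overlap in every panel except that of Atp1b3, where the lowest library labelled knockout (92.66 CPM) and the highest control (92.65 CPM) nearly coincide.

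Atp1b1 encodes the beta-1 subunit, the main beta subunit of the kidney pump, and was the 24th most abundant of the 15017 genes by mean CPM. The gene (ENSMUSG00000026576) lies on chromosome 1, 164437109 to 164458355, minus strand, in the GRCm38 coordinates of the deposited table. It stood at 2814, 2310 and 2414 CPM in the libraries labelled knockout, against 2242, 2715 and 2362 CPM in the controls. The highest values of both groups, in knockout 1 and control 2, lay close together and the groups overlapped. Means were 2513 ± 266 and 2440 ± 246 CPM (SD, n = 3 each), or 0.04 as a log2 fold change (SE 0.14; 95% interval 0.826-fold to 1.28-fold; edgeR adjusted p = 0.9995). Leaving out knockout 1 or control 1 turned it to -0.05 or -0.01. The 3' end of Nme7 overlaps Atp1b1 on the other strand and the labels give no strandedness, but Nme7 had at most 494 counts in a library, where Atp1b1 had at least 36624.

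Atp1b3, which encodes the beta-3 subunit found in many tissues (ENSMUSG00000032412, chromosome 9, 96332655 to 96364442, minus strand), was far less abundant and had the smallest spread of the 7. Its levels were 106.5, 95.19 and 92.66 CPM in the libraries labelled knockout, against 91.59, 91.93 and 92.65 CPM in the controls. It was the 1 gene of 7 whose groups did not overlap, which 8.18% of all genes tested also showed, with knockout 3 just above control 3. In the deposited FPKM values, which are scaled by transcript length and library total, the groups did overlap, at 47.1 to 53.4 in the libraries labelled knockout and 44.2 to 49.2 in the controls. The log2 fold change was 0.09 (SE 0.10; 95% interval 0.915-fold to 1.24-fold; edgeR adjusted p = 0.9995), and the exact permutation test, two-sided, had p = 0.1, the smallest that 3 against 3 allows. Without knockout 1 the log2 fold change was 0.03. Per length, Atp1b1 exceeded Atp1b3 by 19.2-fold to 22.9-fold across the 6 libraries. The log2 ratio of their counts, Atp1b3 to Atp1b1, was -4.68 ± 0.07 in the libraries labelled knockout and -4.72 ± 0.14 in the controls (SD, n = 3 each; exact permutation p = 0.8).

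Fxyd2 encodes the gamma subunit, the FXYD protein of proximal tubule and of the thick limb and distal convoluted tubule, which lowers the pump's affinity for sodium. Its gene (ENSMUSG00000059412) spans 45399669 to 45410278 of chromosome 9, plus strand. It stood at 1353, 1033 and 965 CPM in the libraries labelled knockout, against 1335, 959 and 1084 CPM in the controls. One library in each group, knockout 1 and control 1, was high, and the other 4 lay between 959 and 1084 CPM. Means were 1117 ± 207 and 1126 ± 191 CPM (SD, n = 3 each), with a log2 fold change of -0.01 (SE 0.18; 95% interval 0.748-fold to 1.32-fold; edgeR adjusted p = 0.9995). The log2 fold change turned to 0.04, 0.08 and 0.13 when knockout 2, knockout 3 or control 1 was left out, and was -0.17 without knockout 1. Per length, Fxyd2 was the highest of the 7 genes in all 6 libraries, at 1408 to 1926 FPKM in the libraries labelled knockout and 1454 to 1832 FPKM in the controls. It exceeded Atp1b1 by 1.46-fold to 1.76-fold in the libraries labelled knockout and by 1.29-fold to 2.05-fold in the controls. The log2 ratio of counts, Fxyd2 to Atp1b1, was -1.18 ± 0.13 against -1.12 ± 0.38 (SD, n = 3 each; exact permutation p = 0.9).

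Most Fxyd2 counts were assigned to the transcript with the downstream first exon. Fxyd2-202 held 79.1%, 79.1% and 76.8% of the gene's counts in the libraries labelled knockout, against 82.3%, 74.5% and 78.9% in the controls. The controls spread more widely than the libraries labelled knockout, and enclosed them. The mean shares were 78.3 ± 1.33% and 78.5 ± 3.91% (SD, n = 3 each; exact two-sided permutation p = 1.0). Fxyd2-201, whose first exon lies upstream, held 14.5% to 17.0% in the libraries labelled knockout and 13.2% to 18.6% in the controls. The other 11 transcripts together held 4.51% to 6.95%. Per length, Fxyd2-202 stood at 1233 ± 234 and 1240 ± 221 FPKM and Fxyd2-201 at 280 ± 54.3 and 271 ± 26.6 FPKM in libraries labelled knockout and controls (SD, n = 3 each). The 4 transcripts of Fxyd2 that the annotation types as protein coding, Fxyd2-201 among them, held 16.5% to 19.1% of the gene's counts in the libraries labelled knockout, against 14.4% to 20.2% in the controls. Since 469 exonic bases are common to both main transcripts, only reads that touch the first exon (242 bases in Fxyd2-202, 163 in Fxyd2-201) tell them apart, and the division was the authors' estimate.

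**Figure D2:**
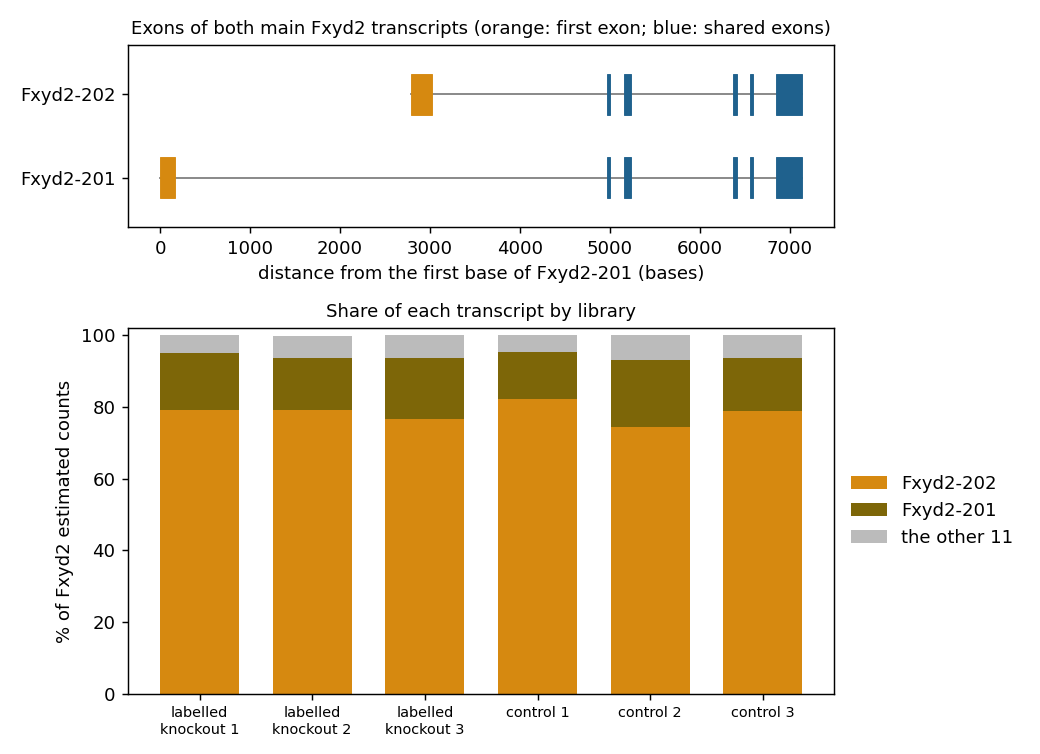
Top, exons of Fxyd2-202 and Fxyd2-201 drawn to scale by distance in bases from the first base of Fxyd2-201 (orange, first exon; blue, the 5 shared exons; lines, introns). Bottom, share of the Fxyd2 estimated counts (%, y axis) held by Fxyd2-202, Fxyd2-201 and the other 11 transcripts in each library; Fxyd2-202 holds between 74.5% and 82.3% in all 6.

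No Fxyd2 transcript passed the threshold when all transcripts of the table were tested. Of its 13 transcripts 12 passed the filter, 0 had an adjusted p under 0.05 by edgeR (background 0.0061% of 32803 transcripts) and 0 had an unadjusted p under 0.05 (background 3.19%). DESeq2 called 0 of 13 (background 0.326%), again with 0 at an unadjusted p under 0.05 (background 2.34%). Fxyd2-202 had a log2 fold change of -0.01 (SE 0.21; 95% interval -0.51 to 0.49) and Fxyd2-201 of 0.06 (SE 0.16; -0.32 to 0.43). Across all 7 genes, 29 of 50 transcripts were tested, and 0 passed at either threshold. Groups did not overlap for 2 of the 29, the main transcript of Atp1b3 and Fxyd5-209, beside 9.94% of all transcripts tested.

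The other genes differed in how many transcripts carried their counts. Kcnj10 has 1 transcript in the table, and the main transcripts of Atp1b1 and Kcnj16 held 99.6% and 95.7% of their genes' counts on average in the libraries labelled knockout, against 99.0% and 96.4% in the controls. The main transcript of Atp1b3 held at least 99.8% in each library. Minor transcripts varied widely between libraries of 1 group. Kcnj16-206 held 7.37%, 1.33% and 0.568% of Kcnj16 counts in the libraries labelled knockout, against 2.10%, 2.51% and 1.08% in the controls. Fxyd4 and Fxyd5 were divided among several coding transcripts: Fxyd4-203 held 49.4 ± 2.89% and 48.6 ± 4.95% of Fxyd4 counts, and Fxyd5-209 held 41.9 ± 9.31% and 32.4 ± 7.99% of Fxyd5 counts, in libraries labelled knockout and controls (SD, n = 3 each). Fxyd5-207 ran the other way, at 23.4 ± 11.1% and 38.2 ± 8.28%, and the groups overlapped in the shares of both.

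Fxyd4 encodes CHIF, the FXYD protein of the collecting duct, which raises the pump's affinity for sodium (ENSMUSG00000004988, chromosome 6, 117933559 to 117937692, minus strand). It stood at 18.6, 19.4 and 15.8 CPM in the libraries labelled knockout, against 15.6, 16.9 and 16.6 CPM in the controls. Knockout 1 and knockout 2 lay above all 3 controls and knockout 3 lay among them. The log2 fold change was 0.13 (SE 0.13; 95% interval 0.887-fold to 1.35-fold; edgeR adjusted p = 0.9995). Principal cells are the main cells of the collecting duct, and the summed level of 6 of their markers, all tested, none at 0 and none called, was 429 to 690 CPM in the libraries labelled knockout and 531 to 750 CPM in the controls. The part of these markers in the Fxyd4 values was not tested. Per length, Fxyd2 exceeded Fxyd4 by 55.4-fold to 82.3-fold across the 6 libraries.

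Fxyd5 encodes dysadherin, an FXYD protein with a long extracellular domain that is also made outside the tubule (ENSMUSG00000009687, chromosome 7, 31032722 to 31042481, minus strand). It was the rarest of the 7 genes, with 131, 83 and 117 counts in the libraries labelled knockout, against 101, 166 and 92 in the controls. These are 7.59, 5.24 and 5.40 CPM against 6.13, 8.41 and 5.37 CPM, and control 2 was the highest of all 6. The log2 fold change was -0.13 (SE 0.24; edgeR adjusted p = 0.9995), and its 95% interval, 0.619-fold to 1.35-fold, was the widest of the 7. Without control 2 the log2 fold change was 0.08. Markers of other cells that could hold this transcript gave, as summed levels, 121 to 144 CPM in the libraries labelled knockout and 103 to 126 CPM in the controls for 5 leukocyte genes, and 188 to 240 against 199 to 242 CPM for 4 endothelial genes. For 5 fibroblast and pericyte genes the summed level was 87.8 to 125 CPM against 106 to 138 CPM. All of these genes were tested, none was at 0 and none was called. An unadjusted p under 0.05 (edgeR) was found for 1 leukocyte and 3 fibroblast or pericyte genes, beside 3.23% of all genes tested. Coro1a was higher (log2 fold change 0.34), and Pdgfrb (-0.38), Dcn (-0.58) and Col1a1 (-0.45) were lower in the libraries labelled knockout. Rgs5 of the fibroblast and pericyte list ran the other way, at 0.31 (SE 0.21). The part of these markers in the Fxyd5 values was not tested.

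Kcnj10 and Kcnj16, the subunits of the basolateral Kir4.1/Kir5.1 channel, were both present in every library but at unequal levels. Kcnj10 (ENSMUSG00000044708, chromosome 1, 172341210 to 172374085, plus strand) stood at 76.2, 72.1 and 75.0 CPM in the libraries labelled knockout, against 62.0, 87.8 and 66.4 CPM in the controls. The 3 libraries labelled knockout lay close together and inside the range of the controls, which control 2 extended upward. The log2 fold change was 0.05 (SE 0.14; 95% interval 0.826-fold to 1.29-fold; edgeR adjusted p = 0.9995). It was 0.21 without control 2, and turned to -0.05 without control 1 and -0.01 without control 3.

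Kcnj16 (ENSMUSG00000051497, chromosome 11, 110968033 to 111027968, plus strand), whose subunit joins Kir4.1 in the distal nephron, stood at 663, 709 and 795 CPM in the libraries labelled knockout and 606, 706 and 675 CPM in the controls. The highest library was knockout 3 and the lowest control 1, with the other 4 between 663 and 709 CPM. Means were 722 ± 66.9 and 662 ± 51.5 CPM (SD, n = 3 each), and the log2 fold change was 0.13 (SE 0.12; 95% interval 0.899-fold to 1.32-fold; edgeR adjusted p = 0.9995). Per length, Kcnj16 exceeded Kcnj10 by 13.5-fold, 15.7-fold and 17.4-fold in the libraries labelled knockout and by 15.7-fold, 13.4-fold and 16.5-fold in the controls. This fold and the ratio of counts that follows compare whole kidney, all segments together, and do not give the make-up of 1 channel. The log2 ratio of counts, Kcnj10 to Kcnj16, was -3.27 ± 0.14 against -3.21 ± 0.18 (SD, n = 3 each; exact permutation p = 0.6). Of the segments that hold both subunits, 5 thick ascending limb markers summed to 6000 to 6550 CPM in the libraries labelled knockout and 5660 to 5970 CPM in the controls, without overlap, and 4 distal convoluted tubule markers to 1000 to 1230 against 1080 to 1210 CPM. Most of the thick limb sum was Umod, at 4349 to 4898 against 4162 to 4305 CPM. Ptger3 of the same list ran the other way without overlap, at 52.8 to 59.6 against 61.4 to 73.0 CPM, Cldn16 was higher without overlap, and Slc12a1 and Cldn10 overlapped, where 8.18% of all genes tested showed no overlap. All of these markers were tested, none was at 0 and none was called, and their part in the channel genes' values was not tested.

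**Figure D3:**
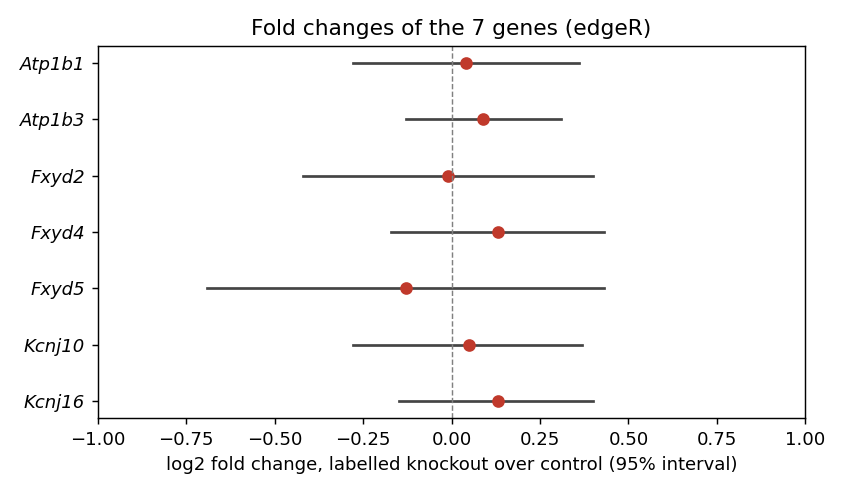
Log2 fold change of each gene, labelled knockout over control (x axis; points), with its 95% interval (lines) from edgeR's quasi-likelihood test on 3 libraries per group; the dashed line marks no change. All 7 intervals cross 0, and they reach from -0.69 for the lower bound of Fxyd5 to 0.43 for the upper bound of Fxyd4 and Fxyd5.

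On the scale per length, the 7 genes fell into 1 order that did not change from library to library. Mean FPKM over the 6 libraries was 1595 for Fxyd2, 980 for Atp1b1, 207 for Kcnj16, 47.7 for Atp1b3, 24.4 for Fxyd4, 13.6 for Kcnj10 and 6.79 for Fxyd5. For each pair of neighbours in this order, the lowest library of the higher gene lay above the highest library of the lower gene. The closest neighbours were Fxyd2 and Atp1b1, 1.63-fold apart on average, and the widest step was the 4.73-fold from Atp1b1 to Kcnj16. These are values of whole kidney, in which genes of all segments are weighted by the share of each segment.

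**Figure D4:**
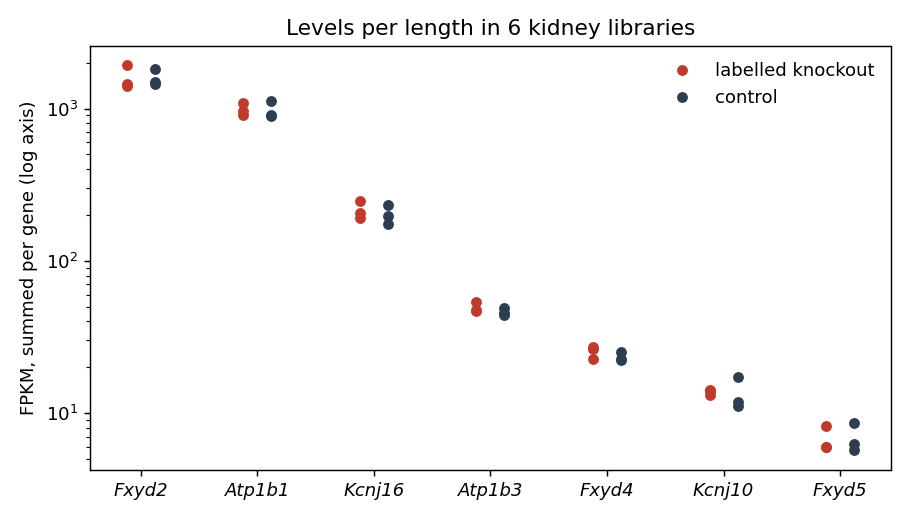
FPKM summed per gene (y axis, logarithmic) in the 3 libraries labelled knockout (red) and the 3 controls (dark blue), with genes ordered by their mean over the 6 libraries. The ranges of neighbouring genes do not overlap, from Fxyd2 (1408 to 1926 FPKM) down to Fxyd5 (5.68 to 8.63 FPKM).

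The genes did not share 1 pattern across libraries. Knockout 1 and control 2 were the 2 highest libraries for Atp1b1, Kcnj10 and Fxyd5. They were also highest for the summed principal cell markers, at 690 CPM in knockout 1, 750 CPM in control 2 and 429 to 577 CPM in the other 4. Avpr2 of that list did not follow, at 13.0 CPM in knockout 1 and 15.4 CPM in knockout 3, and Aqp3 stood at 127.4 CPM in both. The same 2 libraries were highest for the summed intercalated cell markers (178 and 231 CPM, the other 4 at 156 to 166 CPM). So they were for the summed endothelial markers (240 and 242 CPM, the other 4 at 188 to 226 CPM). Single genes of these lists did not all follow. Foxi1 of the intercalated list was lowest in knockout 1, at 18.1 CPM. Of the endothelial list, Cdh5 was highest in control 1 (41.9 CPM), and Emcn was higher in control 1 (54.8 CPM) than in control 2 (49.1 CPM). The part of any cell type in these patterns was not tested. For Fxyd2 the highest libraries were knockout 1 and control 1, and these 2 were the lowest for Kcnj16. The spread between libraries of a group, as edgeR's biological coefficient of variation, was 12.2% for Atp1b3, 14.2% to 15.0% for Kcnj16, Fxyd4, Kcnj10 and Atp1b1, 18.0% for Fxyd2 and 22.5% for Fxyd5, where the median of all genes tested was 17.1%.

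Among 9333 genes with a mean of at least 10 CPM, the profiles most like each member over the 6 libraries, by Pearson's r of log2 CPM, were those of Psme2 (r = 0.995) and Orc5 (0.992) for Atp1b1, and Idh3a (0.98) and Jund (0.975) for Atp1b3. Jund stood at 64.8 CPM in knockout 1 and at 2.38 to 4.11 CPM in the other 5 libraries, so its likeness rests on that 1 library. Idh3a was also highest in knockout 1, at 184.9 CPM against 161.4 to 168.6 CPM in the other 5. So was Atp1b3 itself, at 106.5 CPM against 91.59 to 95.19 CPM. For Fxyd2 they were Commd9 (0.997) and Ndufa2 (0.996). For Fxyd4 they were Cstf2t (0.979) and Aasdhppt (0.968), and for Fxyd5 Ankrd40 (0.988) and Plekhn1 (0.986). For Kcnj10 they were Erap1 (0.987) and Arsa (0.986), and for Kcnj16 Slc38a6 (0.991) and Suz12 (0.986). These are the highest of many values over few libraries, and are given as a description only.

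Atp1b1 and Kcnj10 both lie on chromosome 1, and their nearest tested neighbours were read with them. Of 6 genes beside Kcnj10, 0 passed the threshold by edgeR, while groups did not overlap for Pea15a, at 53.9 to 81.3 CPM in the libraries labelled knockout against 85.05 to 86.05 CPM in the controls, or for Slamf9 and Igsf9. Slamf9 stood at 3.42 to 4.42 against 1.82 to 2.89 CPM (log2 fold change 0.73, SE 0.27) and Igsf9 at 3.13 to 3.91 against 1.03 to 2.69 CPM (0.90, SE 0.35), each within 108 kb of Kcnj10 and with unadjusted p of 0.0252 and 0.0341 (edgeR; adjusted p = 0.9995 for both). Over all genes tested, groups did not overlap for 8.18%, and 3.23% had an unadjusted p under 0.05 (edgeR). Igsf8 and Pigm, the neighbours closest to Kcnj10 on either side, were at -0.04 (SE 0.16) and 0.16 (SE 0.17), near the 0.05 of Kcnj10 itself. Around Atp1b1, the nearest tested genes (Slc19a2, Ccdc181 and Blzf1 on one side, Dpt, Sft2d2 and Tiprl on the other) and Nme7 had log2 fold changes of -0.12 to 0.29, with 0 of 7 past the threshold. Groups did not overlap for Ccdc181, at 24.2 to 27.2 CPM in the libraries labelled knockout against 21.9 to 23.0 CPM in the controls (log2 fold change 0.18, SE 0.11).

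No other gene of the pathway passed the same test. Of 13 other sodium pump, FXYD and H,K-ATPase genes, 7 were tested and 0 were called, with 5 below 0 and a median log2 fold change of -0.15, where the median of all genes tested was -0.01. Atp4a, of the gastric H,K-ATPase, was at 38.3 ± 5.37 against 42.5 ± 5.88 CPM (SD, n = 3 each).

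All 6 other basolateral potassium and chloride channel genes were tested and 0 were called, 5 of them below 0 with a median of -0.10. Kcnj15, which encodes the channel subunit Kir4.2 of proximal tubule, stood at 1403 ± 153 against 1320 ± 89.7 CPM (SD, n = 3 each; log2 fold change 0.09, SE 0.13), and per length it exceeded Kcnj16 by 1.34-fold to 1.58-fold. Kcnk5, of the potassium channel TASK-2 of proximal tubule, varied more between libraries of a group, at 217.5, 217.0 and 309.6 CPM against 232, 156 and 419 CPM (log2 fold change -0.12, SE 0.33).

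Of 11 genes of apical sodium and potassium pathways, 0 were called, with 6 above 0 and a median of 0.02. The phosphate transporter gene Slc34a1 was at -0.04 (SE 0.17) and Slc12a1, of the NKCC2 cotransporter of the thick limb, at 0.07 (SE 0.16). Of 12 regulators, 0 were called, with 5 above 0. The kinase genes Wnk1 and Wnk4, which act upstream of the distal salt cotransporters, were at -0.04 (SE 0.15) and 0.00 (SE 0.13). No gene of these 4 lists had an unadjusted p under 0.05.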

How the data were processed

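The authors deposited 1 table with estimated counts per transcript, without normalization, for 6 libraries (128603 transcripts), next to FPKM values. Per the submitters' processing notes, the build was GRCm38 and the tools, given without role or order, were HISAT2 2.0.1, Cuffdiff 2.2.1, cutadapt 1.9.1, FastQC 0.10.1 and bcl2fastq 2.17.1.14; which program made the counts is not stated. The deposited FPKM values divide by the annotated transcript length (711 bases for Fxyd2-202, 632 for Fxyd2-201) and the column total. For each symbol the estimated counts of its transcripts were added up (97 symbols cover more than 1 gene ID), rounded, and tested with edgeR 4.0.16 (R 4.3.3; quasi-likelihood test, TMM, default filter with minimum count 10, group only, two-sided, Benjamini-Hochberg over 15017 genes); transcripts likewise (32803). SE was taken as the absolute log2 fold change over the root of the F statistic. Single values were compared by exact permutation tests. Alternatives were DESeq2 1.42.0, limma 3.58.1 on log2(FPKM + 1) and log2(FPKM + 0.1), median-of-ratios factors, no filter, sums per gene ID, a replicate block and each library left out. The test was tested on simulated data. Gene sums were within 0.01 of a whole number in 87.9% of values above 0. The 95% intervals come from the same fit and rest on 3 libraries per group. Genes named were the 7 members, the 2 most abundant (or called) of each pathway list, the 2 most alike profiles, and the 3 nearest tested neighbours on each side for members on chromosome 1; Gm, Rik and LOC symbols were left out of the last 2. Some genes that this rule names are not reported here. The members and lists were chosen with earlier results of these data known.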

Additional observations from a re-analysis of the deposited data

How the results depend on the processing

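No member and no Fxyd2 transcript was called under any alternative run, including 91 refits of the 7 genes (lowest adjusted p 0.923). Over all genes, the 2 calls became 15 with DESeq2, 5 without a filter, 1 with limma at either pseudocount, and 1 to 6 as each library was left out; these counts do not touch the members. The direction of a fold change turned in 8 of the 91 refits, all with a library left out: the log2 fold change ran from -0.05 to 0.13 for Atp1b1, -0.17 to 0.13 for Fxyd2, -0.32 to 0.08 for Fxyd5 and -0.05 to 0.21 for Kcnj10, while Atp1b3 (0.03 to 0.13), Fxyd4 (0.06 to 0.22) and Kcnj16 (0.05 to 0.18) kept their sign. The differences of the within-library measures, labelled knockout minus control, turned likewise: -2.229 to 1.671 percentage points for the share of Fxyd2-202, and on the log2 scale -0.244 to 0.132 for Fxyd2 to Atp1b1, -0.139 to 0.042 for Kcnj10 to Kcnj16 and -0.033 to 0.102 for Atp1b3 to Atp1b1. The sign turned without knockout 3 or control 1 for the share (0.564 and 1.671) and for Fxyd2 to Atp1b1 (0.015 and 0.132), without knockout 3 or control 2 for Kcnj10 to Kcnj16 (0.004 and 0.042), and without control 2 for Atp1b3 to Atp1b1 (-0.033); the cause was not tested. Same-numbered libraries had r of deviations of 0.09, -0.091 and 0.116, where those of unlike number ran from -0.17 to 0.076. The values 0.116 and 0.09 were the highest of all, but all were small, and the numbers were not taken to pair the libraries. With the replicate block edgeR called 2 genes and 0 members. The difference in the Fxyd2-202 share is -0.202 points with the block as without it by arithmetic, and checks nothing. With 3 libraries per group, small differences could not be detected, and the intervals given are not limits of detection. A larger difference could also miss the threshold, as that of Slamf9 did (log2 fold change 0.73, SE 0.27, edgeR adjusted p = 0.9995).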
